A study of Homo sapiens and Mus musculus with 213 samples.

Results

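The RUNX transcription factors and their partner CBFB are described here in human embryonic kidney cells with an edited MYC promoter. The members were the 4 genes RUNX1, RUNX2, RUNX3 and CBFB, found by symbol in the GENCODE annotation, of 58336 genes listed for each RNA-seq library. All 4 passed the minimum of a mean of 10 normalized counts over the 9 libraries, as 20884 genes did. The family was chosen by the measured difference of RUNX3 between MYC MUT and MYC WT, which was already known, so the differences of the 4 genes between lines are given as a description. No p-value is given for them, and where they are counted by the rule for called genes nothing is read from the count.

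The 9 libraries came from 3 lines of HEK293T, an immortalized line from human embryonic kidney that carries the SV40 large T antigen, with 3 libraries each. MYC WT cells keep the natural guanine-rich motif in the MYC promoter, which can fold into a G-quadruplex (G4), a stacked structure of guanine-rich DNA. In MYC MUT cells (cell line label HEK293T_MutMYCG4) bases of that motif were exchanged so that it cannot fold, and in SWP cells the natural motif was swapped for a G4 motif of another gene. Both edited lines were made with CRISPR from HEK293T and grown from single cells selected for carrying the edit on all copies, so each stands for 1 clone or a few, and the labels do not say which clone a library came from. None of the lines received a drug or other treatment in these libraries. Values are normalized counts, that is the reads on a gene after division by the size factor of its library. The libraries held from 65024354 to 98497026 reads on genes.

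The column names of the 3 MYC WT libraries include a sequencing pool, and those of MYC MUT and SWP do not. Pool and line therefore cannot be told apart in MYC MUT against MYC WT or in SWP against MYC WT, while MYC MUT against SWP is free of that difference in names. MYC, the edited gene, had 20020, 28396 and 21580 normalized counts in MYC WT, 10693, 11176 and 12400 in MYC MUT, and 14480, 24743 and 25245 in SWP. Its log2 difference in MYC MUT from MYC WT was -1.02 (SE 0.19, limma adjusted p = 0.00182), and the SWP difference of -0.15 did not pass the test (limma adjusted p = 0.712). Of 10 kidney epithelium markers 5 reached a mean of 10 in each line. LRP2 was at 3564 to 5075 normalized counts, PAX8 at 0 to 1.94, and UMOD at 0 in every library. PAX2 (0.69, SE 0.25, limma adjusted p = 0.0460) and LHX1 (0.76, SE 0.18, limma adjusted p = 0.00606) were called higher in MYC MUT against MYC WT, and also against SWP. EPCAM went the other way, lower in MYC MUT than in MYC WT without overlap but not called (-0.44, SE 0.21, limma adjusted p = 0.128). LRP2 and AQP1 overlapped between these lines. MYC WT 1 and SWP 1 lay farthest from the other libraries of their line, with a median absolute log2 difference of 0.186 and 0.209. MYC WT 2 was close to MYC WT 1, at 0.171, and MYC WT 3 was at 0.123. SWP 2 and SWP 3 were at 0.141 and 0.135, and the MYC MUT libraries at 0.0801 to 0.0953.

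RUNX proteins bind DNA through a conserved region, the Runt domain, and CBFB is the partner that does not touch DNA itself but raises the affinity of the RUNX protein and protects it from degradation. RUNX1 is a master regulator of blood stem cells, RUNX2 of bone and cartilage, and RUNX3 of cytotoxic T cells, gut epithelium and the sensory neurons that sense muscle stretch. Each RUNX gene is transcribed from a distal promoter, P1, and a proximal promoter, P2, and the resulting proteins differ at their start. The deposited values are sums per gene and do not separate P1 from P2 transcripts.

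RUNX3 lies on the reverse strand at chr1:24899511-24965121 (hg38). The 250 bases before the start of each of its promoters are shown because RUNX3 is the member whose level differed most between lines. They were taken from RefSeq windows on GRCh38.p14, in the direction of transcription. Capitals mark a form of the motif bound by Runt domains (ACCACA or its reverse complement TGTGGT). Other forms of the motif were not searched or marked, so every count of matches covers this form only.
RUNX3 P1, chr1:24965011-24965260: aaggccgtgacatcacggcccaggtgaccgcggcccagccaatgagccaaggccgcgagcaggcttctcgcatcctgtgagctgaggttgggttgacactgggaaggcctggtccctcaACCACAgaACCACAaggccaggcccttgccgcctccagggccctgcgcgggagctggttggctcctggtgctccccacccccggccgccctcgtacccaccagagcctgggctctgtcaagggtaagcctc
RUNX3 P2, chr1:24930277-24930526: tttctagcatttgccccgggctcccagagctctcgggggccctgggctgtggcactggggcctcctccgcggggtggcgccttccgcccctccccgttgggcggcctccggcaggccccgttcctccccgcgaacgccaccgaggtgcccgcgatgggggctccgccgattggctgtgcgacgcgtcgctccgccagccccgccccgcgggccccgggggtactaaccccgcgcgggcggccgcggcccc
The P1 stretch holds the motif at -131 and -123, counted from the start of transcription as the first base. These letters form a pair with 2 bases between them, and 102 of the 250 bases lie in an exon of the transcript RUNX3-204, whose coding sequence GENCODE does not define. No match was found in the P2 stretch, which does not overlap an annotated exon of the gene.

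RUNX2, on the forward strand at chr6:45328157-45664349, has the same pair of letters in its P1 window, but after the start, at 17 and 25. The 30 bases around it lie in the 5′ untranslated part of RUNX2-202 and are printed to show the shared spacing.
RUNX2 P1, chr6:45328338-45328367: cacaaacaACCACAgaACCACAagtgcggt
Its P1 window holds 2 further matches at -191 and -87, and its P2 window holds none. The only RUNX1 window in the RefSeq table, that of P2 at chr21:34888650-34888949, holds none either. Of all 35116 promoter windows of 300 bases, 13.1% hold at least 1 match and 1.31% hold at least 2. A match is a string of letters of the searched form and not a measured binding site.

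Since the study edits a G4, the windows were also searched on both strands for 4 runs of at least 3 G with 1 to 7 bases between runs, a pattern that 25.0% of all windows hold. RUNX3 P1 and RUNX1 P2 hold 1 match each, printed with the runs of G in capitals. The RUNX3 match lies before the start on the strand opposite to the gene, in the exon of RUNX3-204, and the RUNX1 match lies after the start on the strand of the gene, in the 5′ untranslated part of RUNX1-202.
RUNX3 P1, chr1:24965044-24965069: GGGtacgaGGGcggccGGGGGtGGGG
RUNX1 P2, chr21:34888661-34888678: GGGcgcGGGcGGGacGGG
The GC content was 66.3% in the RUNX3 P1 window and 76.0% in P2, 42.7% in RUNX2 P1 and 76.0% in P2, and 72.0% in RUNX1 P2, against a median of 58.7% over all windows. In the 2 genes with both windows, P2 was thus richer in G and C than P1, and its CpG count was 38 against 15 in RUNX3 and 39 against 2 in RUNX2. Whether any of these windows folds or is bound in these cells was not measured in the RNA-seq data.

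RUNX3 was present in MYC WT and SWP and almost absent in MYC MUT. Its normalized counts were 290, 247 and 230 in MYC WT, 4.62, 3.89 and 2.92 in MYC MUT, and 275, 253 and 332 in SWP. The MYC MUT libraries lie far below all others, and MYC WT and SWP overlap. The MYC MUT values rest on 5, 4 and 3 reads, 12 in all, and their mean was 1.49% of the MYC WT mean, with an exact Poisson interval for the summed reads of 0.773% to 2.61% that covers counting error only. The log2 difference from MYC WT was -5.75 (SE 0.19), the third lowest of the 20884 tested genes, and that from SWP was -5.91 (SE 0.19). It depends on the added count of 1, and ranged from -6.05 to -4.26 over the alternative settings. In SWP the mean was 112% of MYC WT, a log2 difference of 0.16 (SE 0.19). In a bulk library fewer cells with the transcript and less transcript per cell cannot be told apart.

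RUNX1, on the reverse strand at chr21:34787801-36004667, was lower in SWP and level in MYC MUT. It had 772, 743 and 715 normalized counts in MYC WT, 826, 679 and 755 in MYC MUT, and 450, 396 and 430 in SWP. Every SWP library lay below every library of both other lines, and MYC WT and MYC MUT overlapped. The SWP mean was 57.2% of MYC WT, with a log2 difference of -0.80 (SE 0.10) from MYC WT, and MYC MUT exceeded SWP by 0.82 (SE 0.10). Between MYC MUT and MYC WT the difference was 0.02 (SE 0.10), smaller than its error. RUNX1 and RUNX3 thus had their low values in different lines.

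RUNX2 was the least abundant RUNX gene per length in MYC WT and SWP, and its highest values were in MYC MUT. It had 131, 99.9 and 104 normalized counts in MYC WT, 141, 159 and 150 in MYC MUT, and 96.2, 130 and 123 in SWP. All MYC MUT libraries lay above all other libraries, but MYC MUT 1 exceeded MYC WT 1 by less than the SD of MYC WT, 17.02. The log2 difference of MYC MUT was 0.43 (SE 0.16) from MYC WT and 0.37 (SE 0.16) from SWP, and that of SWP from MYC WT was 0.06 (SE 0.16). MYC WT 1 decides on which side of the call threshold RUNX2 falls: without it the difference from MYC WT was 0.55.

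CBFB, on the forward strand at chr16:67028984-67101058, was by far the most abundant member. It had 8236, 6095 and 6185 normalized counts in MYC WT, 9312, 8434 and 8313 in MYC MUT, and 8879, 7359 and 7159 in SWP. The MYC MUT libraries lay above those of MYC WT, and SWP overlapped both. The means were 127% of MYC WT in MYC MUT and 114% in SWP, with log2 differences of 0.36 (SE 0.12) and 0.20 (SE 0.12), and 0.16 (SE 0.12) between MYC MUT and SWP. In each line the first library had the highest CBFB value, and without MYC WT 1 the differences from MYC WT were 0.50 in MYC MUT and 0.34 in SWP.

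**Figure D1:**
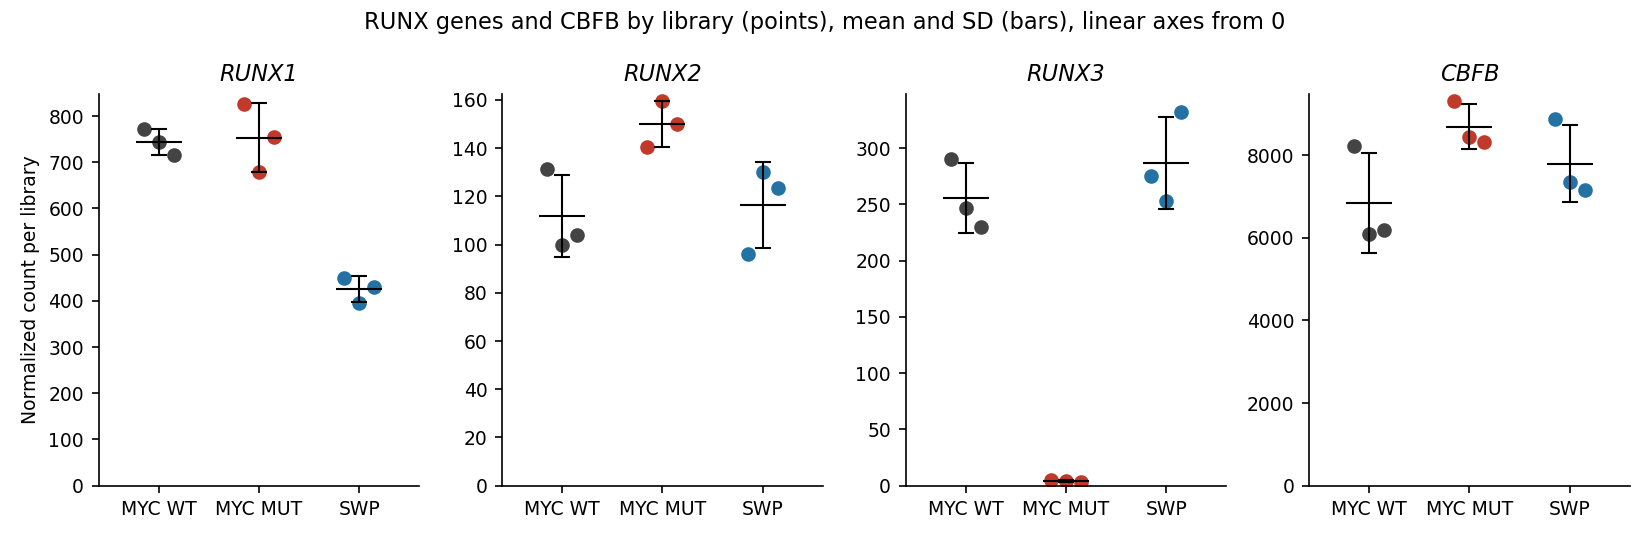
Normalized counts of RUNX1, RUNX2, RUNX3 and CBFB (vertical axes, linear from 0) in the 3 libraries of each line (points), with the mean and SD of each line (horizontal bars and whiskers). RUNX3 falls to 2.92 to 4.62 in MYC MUT, and RUNX1 lies at 396 to 450 in SWP against 679 to 826 in the other lines.

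A gene counts as called where its adjusted p was below 0.05 and its log2 difference exceeded 0.5 in either direction. The rule is applied to the members only to set them beside all tested genes, since the choice of the family used the RUNX3 difference and so fixed its outcome. Against MYC WT, 1 of the 4 members met it in MYC MUT, RUNX3, where 21.4% of all tested genes were called, 11.3% higher and 10.1% lower. In SWP it was 1 of 4, RUNX1, where 5.13% were called, 2.15% higher and 2.98% lower. Between MYC MUT and SWP it was 2 of 4, RUNX1 higher and RUNX3 lower in MYC MUT, where 20.6% were called, 12.3% higher and 8.31% lower. With libraries scaled to equal totals, or without MYC WT 1, RUNX2 was also called higher in MYC MUT against MYC WT. The values of MYC MUT and MYC WT did not overlap for 3 of 4 members, as for 52.3% of all tested genes (25.9% higher and 26.4% lower). Those of SWP and MYC WT did not overlap for 1 of 4, as for 24.6% (9.10% higher and 15.5% lower), and those of MYC MUT and SWP for 3 of 4, as for 52.3% (29.2% higher and 23.0% lower). Since the members were chosen with these contrasts known, nothing is read from these shares.

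**Figure D2:**
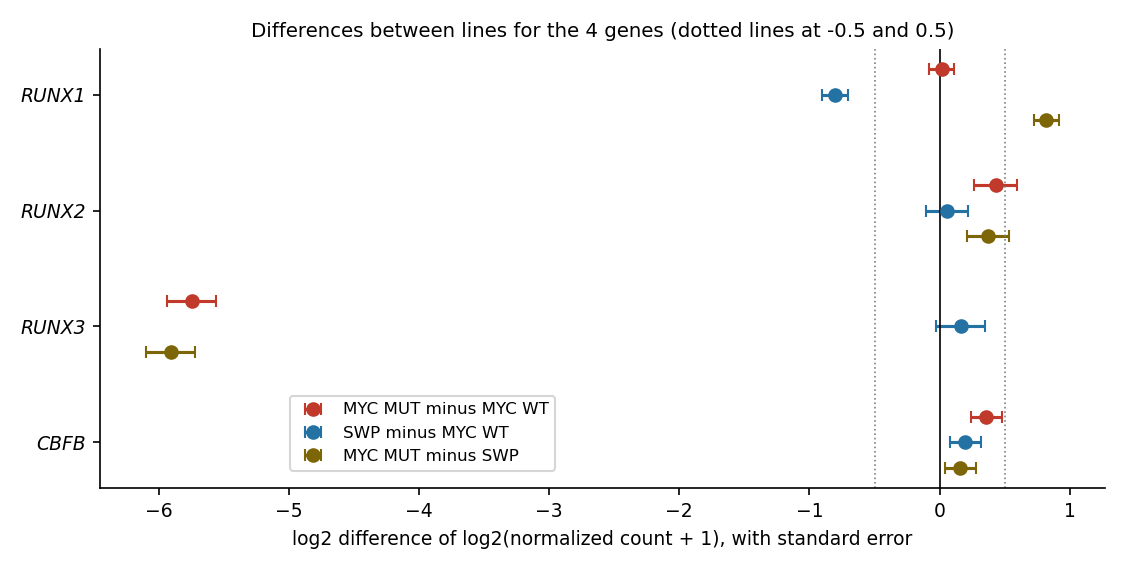
Log2 differences of log2(normalized count + 1) between lines for the 4 genes (horizontal axis), with the standard error of the fit as whiskers. RUNX3 stands at -5.75 and -5.91 in the comparisons with MYC MUT, RUNX1 at -0.80 in SWP minus MYC WT, and all other differences except RUNX1 in MYC MUT minus SWP lie between -0.5 and 0.5.

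Levels of different genes can be compared only per length, so the normalized counts were divided by the kb of all annotated exons of a gene (15574 bases for RUNX1, 8192 for RUNX2, 4922 for RUNX3 and 4652 for CBFB). In MYC WT the level per kb was 1470 ± 260.3 for CBFB, 52.0 ± 6.29 for RUNX3, 47.7 ± 1.82 for RUNX1 and 13.6 ± 2.08 for RUNX2 (SD, n = 3). RUNX3 and RUNX1 did not differ beyond their spread there. In MYC MUT the order per kb was CBFB at 1867 ± 117.2, RUNX1 at 48.4 ± 4.75, RUNX2 at 18.3 ± 1.155 and RUNX3 at 0.774 ± 0.173 (SD, n = 3), each step larger than the spread. In SWP RUNX3 led the RUNX genes with 58.2 ± 8.33 per kb, before RUNX1 with 27.3 ± 1.76 and RUNX2 with 14.2 ± 2.185 (SD, n = 3). The many exons of RUNX1 transcripts weigh on this order. Divided by the longest transcript alone, RUNX1 was at 102 ± 3.89 and RUNX3 at 58.9 ± 7.13 per kb in MYC WT, so RUNX1 then led, and in SWP they stood at 58.5 ± 3.77 and 66.0 ± 9.45 and did not differ beyond their spread (SD, n = 3).

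The RUNX sum, the 3 RUNX levels per kb of all exons added, was 113 ± 9.98 in MYC WT, 67.5 ± 3.67 in MYC MUT and 99.8 ± 9.21 in SWP (SD, n = 3). The order of the lines depends on the length used. On the longest transcripts the RUNX sum was 180 ± 13.6, 130 ± 8.64 and 144 ± 11.2 (SD, n = 3). There MYC MUT and SWP overlapped, and every SWP library lay below MYC WT. Its makeup differed by line. RUNX3 made up 45.8% ± 1.49 of it in MYC WT, 1.146% ± 0.233 in MYC MUT and 58.2% ± 2.93 in SWP, while RUNX1 made up 42.2% ± 2.12, 71.6% ± 3.17 and 27.5% ± 2.44 (SD, n = 3). RUNX2, at 12.0% ± 0.893 in MYC WT and 14.3% ± 2.55 in SWP, reached 27.3% ± 3.20 in MYC MUT (SD, n = 3). On the longest transcripts the mean share of RUNX3 was 32.6% in MYC WT, 0.675% in MYC MUT and 45.6% in SWP. That of RUNX1 was 56.8%, 79.6% and 40.6%. The level of the shared partner CBFB per kb was 11.9 to 14.2 times the RUNX sum in the MYC WT libraries, 26.5 to 28.4 times in MYC MUT and 14.0 to 19.8 times in SWP, so that the MYC MUT libraries lay apart. On the longest transcripts the ratio was 21.3 in MYC MUT and 17.3 in SWP on average, and the lowest MYC MUT library, at 20.4, still lay above the highest SWP library, at 20.0. These are ratios of mRNA and say nothing of protein.

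**Figure D3:**
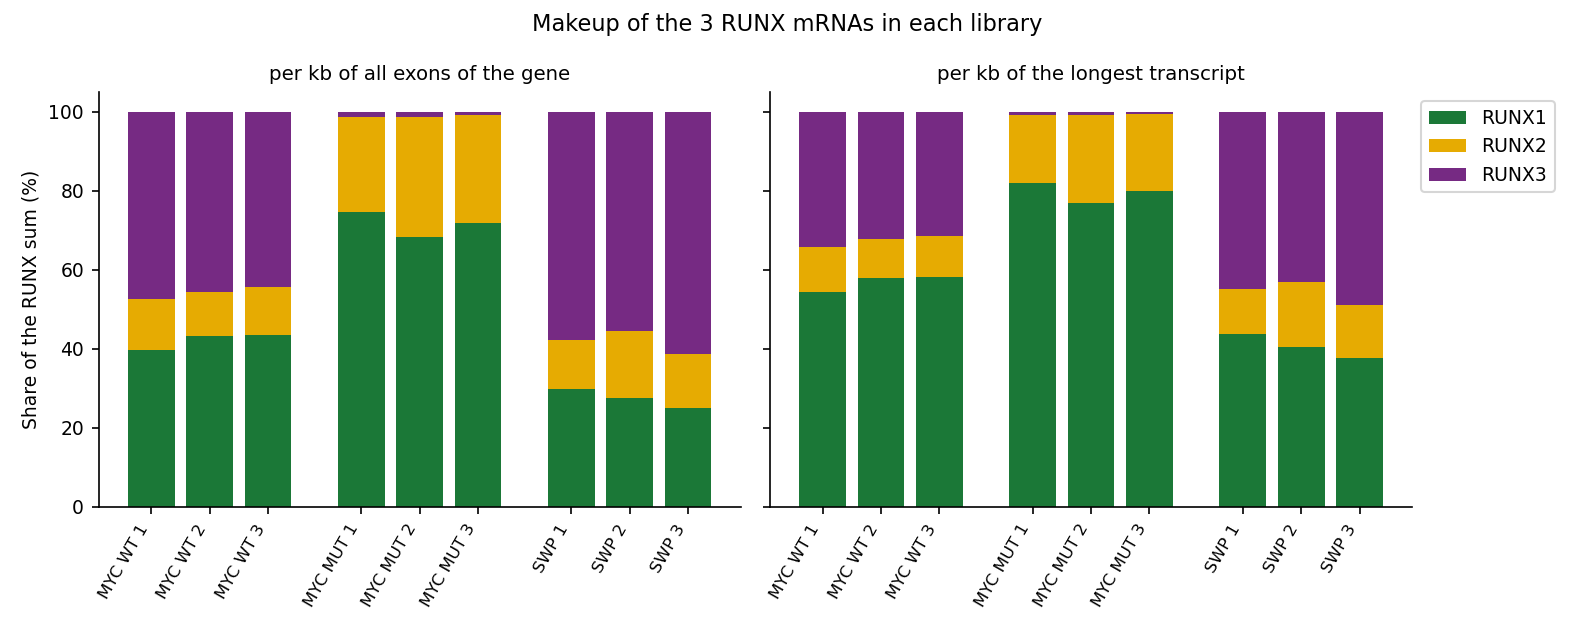
Share of RUNX1, RUNX2 and RUNX3 (stacked colours, percent) in the sum of the 3 RUNX levels per kb in each library, by all exons (left) and by the longest transcript (right). RUNX3 makes up 44.4% to 47.3% in MYC WT, 0.881% to 1.32% in MYC MUT and 55.4% to 61.3% in SWP by all exons.

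The wider RUNX network was described with 8 lists of 107 genes by role, of which 81 were tested. Against MYC WT, 16 of the 81 were called in MYC MUT, 11 higher and 5 lower, a share of 19.8% beside 21.4% of all tested genes. In SWP 6 were called, 2 higher and 4 lower, 7.41% beside 5.13%, and the number was 3 without SWP 3 and 9 without SWP 1. In MYC MUT against SWP 21 were called, 15 higher and 6 lower, 25.9% beside 20.6%. The median log2 difference of the 81 was 0.00 in MYC MUT and -0.02 in SWP against MYC WT, and that of all tested genes was 0.00 and -0.06. Among all genes 52.8% of the calls in MYC MUT against MYC WT were higher, and 64.3% with libraries scaled to equal totals. These shares are close to those of genes at large, so the network as a whole is no result, and the genes described next are single cases in it.

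Corepressors are recruited by RUNX proteins to silence targets. All 15 passed the minimum. Limma called 2 in MYC MUT against MYC WT, 13.3% beside 21.4% of all tested genes, and 0 in SWP, beside 5.13%. CBFA2T3, which codes for a corepressor of the ETO family, had 52.3, 52.8 and 50.1 normalized counts in MYC WT, 221, 230 and 263 in MYC MUT, and 57.3, 103 and 108 in SWP. It rose in MYC MUT by 2.178 (SE 0.22, limma adjusted p = 2.82e-05) on the log2 scale. Its SWP difference of 0.72 (SE 0.22) missed the threshold (limma adjusted p = 0.0622) and passed it with the replicate number as a block (limma adjusted p = 0.0171). edgeR (0.85, adjusted p = 0.0344) and DESeq2 (0.85, adjusted p = 0.00665) also called it, as limma did without SWP 1 (1.01), and its adjusted p lay between 0.00111 and 0.200 in the alternatives. RUNX1T1, the family member known as the fusion partner of RUNX1 in leukaemia, fell in MYC MUT by 0.77 on the log2 scale (SE 0.09, limma adjusted p = 6.24e-05), from 1803, 2062 and 1877 to 1069, 1142 and 1149, with no overlap. In SWP it had 1794, 2149 and 2054. Of the 15 corepressors limma called 0 in SWP, 4 had an unadjusted p under 0.05, and edgeR and DESeq2 called 1 each, CBFA2T3. The TLE and HDAC genes, NCOR1, SIN3A, SUV39H1 and CBFA2T2 were not called in MYC MUT or SWP against MYC WT, and the median log2 difference of the 15 was -0.11 and 0.01. The 8 coactivators, among them the acetyltransferases EP300, CREBBP and KAT6A, had log2 differences between -0.50 and 0.33 and 0 calls by limma in the 3 comparisons. In MYC MUT against MYC WT 5 of the 8 had an unadjusted p under 0.05 and edgeR and DESeq2 called 0, in SWP against MYC WT these counts were 0, and between MYC MUT and SWP 5 had such a p and both tools called KAT6B.

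Of the DNA-binding partners, factors whose sites lie beside RUNX sites or that bind RUNX proteins, 18 of 20 were tested. ETS1, which binds DNA together with RUNX1, moved in opposite directions in the edited lines. It had 274, 267 and 348 normalized counts in MYC WT, 765, 878 and 998 in MYC MUT, and 109, 116 and 104.9 in SWP, with no overlap between any lines. Its log2 difference from MYC WT was 1.57 (SE 0.14, limma adjusted p = 1.02e-05) in MYC MUT and -1.41 (SE 0.14, limma adjusted p = 7.32e-05) in SWP. Between MYC MUT and SWP it was 2.98 (SE 0.14, limma adjusted p = 7.42e-08).

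FOS, a subunit of the AP-1 factor, rose in MYC MUT by 2.66 on the log2 scale (SE 0.37, limma adjusted p = 0.000271), from 114, 64.0 and 56.8 to 925, 335 and 345 normalized counts. The first library of each line was the highest, and in SWP FOS had 176, 123 and 119. The SWP difference of 0.87 (SE 0.37) did not pass the test (limma adjusted p = 0.185) except with the replicate number as a block (limma adjusted p = 0.00357), and reached 0.431 over the alternatives. CEBPA, a myeloid factor, rose in MYC MUT by 0.64 on the log2 scale (SE 0.08, limma adjusted p = 0.000174). Its SWP difference from MYC WT was also above 0, between 0.36 and 0.52 over the alternatives. It was called there only without MYC WT 1 (0.52, limma adjusted p = 0.00285). MYC MUT exceeded SWP by only 0.17 to 0.23, which was not called. JUN, the other AP-1 subunit listed, rose in SWP by 0.51 (SE 0.10, limma adjusted p = 0.00950), a value that fell to 0.42 without SWP 3 and 0.48 without SWP 2, under the call threshold. FLI1, an ETS factor of blood stem cells, fell in SWP by 0.85 on the log2 scale (SE 0.22, limma adjusted p = 0.0357), from 58.4, 69.6 and 52.0 to 24.1, 39.4 and 36.9, and this call was lost in 12 of 20 alternatives, among them without SWP 1 or SWP 3 and without each of the other lines' libraries, with adjusted p up to 0.117. Against MYC WT, the partners in MYC MUT comprised 3 called higher and 0 lower, 16.7% of the 18 beside 21.4% of all tested genes. In SWP 1 was called higher and 2 lower, 16.7% beside 5.13%, and with 18 genes nothing is read from these counts.

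Among 12 genes of RUNX turnover and modification, 1 was called in MYC MUT against MYC WT, 8.33% beside 21.4% of all tested genes. In MYC MUT against SWP 2 were called, 16.7% beside 20.6%, and in SWP against MYC WT 0, beside 5.13%. WWP1, a ubiquitin ligase, fell in MYC MUT by 1.01 on the log2 scale (SE 0.07, limma adjusted p = 1.83e-06), from 3053, 2976 and 2725 normalized counts to 1451, 1434 and 1442. SWP lay between, at 2279, 2258 and 2235, without overlap with either line, and its difference of -0.37 (SE 0.07, limma adjusted p = 0.00521) stayed within 0.5. SMURF1, SMURF2, ITCH and CDK6 were among the 11 genes not called in MYC MUT. In SWP limma, edgeR and DESeq2 called 0 of the 12, of which 2 had an unadjusted p under 0.05.

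Skeletal, blood and immune targets were mostly below the minimum mean of 10. Of 12 skeletal targets 5 were tested, and of 19 blood and immune targets 7, while 4 of the latter had no read in any library. COL1A1, the main collagen of bone and of many other tissues, rose in MYC MUT by 0.78 on the log2 scale (SE 0.13, limma adjusted p = 0.000912), from 1034, 1213 and 1086 normalized counts to 1843, 1927 and 1951. ALPL, the alkaline phosphatase of mineralizing bone, fell in SWP by 0.88 (SE 0.12, limma adjusted p = 0.00118), from 388, 449 and 386 to 190, 222 and 256. MYB, a factor of blood progenitors, fell in MYC MUT by 1.22 (SE 0.19, limma adjusted p = 0.000515), from 774, 941 and 718 to 303, 356 and 385. Below the mean of 50 set for naming, and chosen after their values were seen, GFI1B and TBX21 were also called higher in MYC MUT. GFI1B had 9.23, 11.2 and 6.74 normalized counts in MYC WT and 36.1, 34.0 and 42.9 in MYC MUT, whereas TBX21 overlapped between these lines and lost its call in 9 of 19 alternatives, among them without MYC WT 1 or 3, any MYC MUT library or SWP 2. Limma called 1 of 5 skeletal targets (20.0%) and 3 of 7 blood and immune targets (42.9%) in MYC MUT against MYC WT, beside 21.4% of all tested genes. Between MYC MUT and SWP it called 2 of 5 (40.0%) and 5 of 7 (71.4%), beside 20.6%. In SWP against MYC WT 1 of 5 skeletal targets was called (20.0%), beside 5.13%. With so few genes nothing is read from these counts. In SWP limma, edgeR and DESeq2 called 0 of the 7 tested blood and immune targets, where limma called 5.13% of all tested genes. Of the 7, 2 had an unadjusted p under 0.05.

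Growth control targets are genes of the cell cycle, of cell death and of TGF-beta signalling. CCND1, cyclin D1 of the G1 phase, rose in MYC MUT from 2261, 1766 and 1648 normalized counts to 8134, 7560 and 8154, by 2.08 on the log2 scale (SE 0.12, limma adjusted p = 7.67e-07). In SWP, at 2698, 2481 and 3194, it rose by 0.57 (SE 0.12, limma adjusted p = 0.0127), and this call was lost in 3 of 20 alternatives, among them without MYC WT 3 (0.47) and without SWP 3 (also 0.47). CDKN1A, the cell-cycle inhibitor p21, rose in MYC MUT by 1.35 (SE 0.18, limma adjusted p = 0.000198). CDKN2A, the locus of the inhibitor p16, fell in MYC MUT by 1.26 (SE 0.09, limma adjusted p = 2.86e-06), from 22868, 23018 and 27543 to 9646, 9971 and 10888.

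TGFBR2, the type II receptor for TGF-beta, moved in opposite directions as ETS1 did. Its normalized counts were 398, 478 and 374 in MYC WT, 930, 1027 and 1034 in MYC MUT, and 42.4, 56.5 and 68.0 in SWP. The log2 difference from MYC WT was 1.26 (SE 0.17, limma adjusted p = 0.000162) in MYC MUT and -2.90 (SE 0.17, limma adjusted p = 1.44e-06) in SWP. MYC MUT exceeded SWP by 4.16 (SE 0.17, limma adjusted p = 2.58e-08). Of the 9 growth control genes that passed the minimum MYC MUT had 4 calls, 3 higher and 1 lower, and SWP had 2, 1 higher and 1 lower. Over all tested genes 21.4% and 5.13% were called, and with 9 genes nothing is read from the difference.

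Sensory neuron targets were included because RUNX3 and RUNX1 specify such neurons, and 7 of 10 were tested. ISL1, a homeobox factor of these neurons, had 1833, 1580 and 1812 normalized counts in MYC WT and 1175, 1263 and 1248 in MYC MUT. Its difference of -0.50 (SE 0.08, limma adjusted p = 0.000617) lay at the call threshold and was under it in 8 of 20 alternatives, among them without MYC WT 1, MYC WT 3 or MYC MUT 1. PVALB, a marker of stretch-sensing neurons with a mean below 50, chosen after its values were seen, was at 10.3, 6.73 and 10.6 in MYC WT and 35.1, 39.9 and 40.9 in MYC MUT, and was called higher (1.98, SE 0.36, limma adjusted p = 0.00140). Its SWP difference from MYC WT lay between 0.46 and 1.24 over the alternatives. It was called there only without SWP 1 (limma adjusted p = 0.0230). The PVALB call in MYC MUT against SWP was lost in 6 of 19 alternatives. The receptor genes NTRK2 and RET were not called against MYC WT. In MYC MUT limma called 2 of the 7 against MYC WT, 28.6% beside 21.4% of all tested genes, and 2 against SWP, 28.6% beside 20.6%. With 7 genes nothing is read from these counts. In SWP limma, edgeR and DESeq2 called 0 of the 7, where limma called 5.13% of all tested genes, and 2 had an unadjusted p under 0.05.

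**Figure D4:**
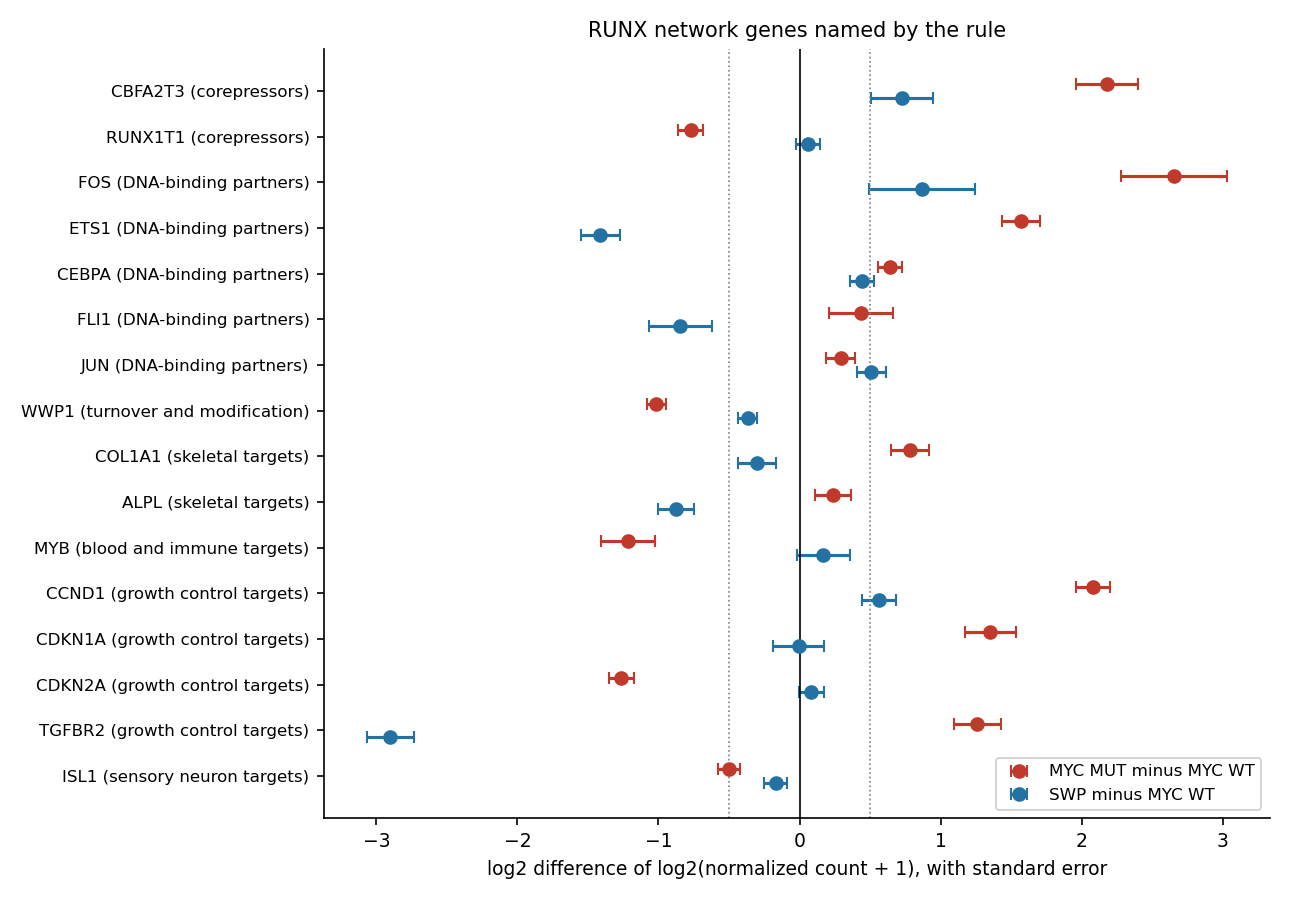
Log2 differences of log2(normalized count + 1) against MYC WT (horizontal axis), with standard errors, for the network genes named by rule, with their list in brackets (vertical axis). ETS1 and TGFBR2 lie right of 0 in MYC MUT (1.57 and 1.26) and left of 0 in SWP (-1.41 and -2.90).

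The levels of cell types in which RUNX genes are known were checked with markers. Of the 8 blood cell markers, PTPRC was at 0 to 1.85 normalized counts and HBB at 0 in every library. The summed count of the blood cell markers was 121 to 138 in MYC WT, 159 to 177 in MYC MUT and 92.8 to 104 in SWP. The summed count of 7 osteoblast and chondrocyte markers was 35.6 to 36.9 in MYC WT, 90.4 to 108 in MYC MUT and 20.1 to 24.1 in SWP, and IBSP, SP7 and COL10A1 were at 0 to 2.77. ACAN, the cartilage proteoglycan aggrecan, carried the higher sum in MYC MUT, with a mean of 13.6 in MYC WT, 84.2 in MYC MUT and 5.70 in SWP. It was called higher in MYC MUT (2.58, SE 0.26, limma adjusted p = 3.14e-05) and lower in SWP (-1.10, SE 0.26, limma adjusted p = 0.0227). BGLAP, the osteoblast protein osteocalcin, had means of 18.7, 13.0 and 13.8 and was not called. The lower sum in SWP came mostly from ACAN and BGLAP together. Of the sensory neuron markers POU4F1 had 6112 to 8409 and NTRK3 0 to 15.6 normalized counts. PRPH, the neurofilament protein peripherin, was called higher in MYC MUT (1.04, SE 0.32, limma adjusted p = 0.0250), where ISL1 was lower. Of 5 neural-type genes known in HEK293 lines 4 reached a mean of 10 in each line, and STMN2 was at 0 to 2.89 normalized counts. Their summed count was 27416 to 31441 in MYC WT, 30439 to 33672 in MYC MUT and 20477 to 26922 in SWP. The genes of this list moved in different directions. The neurofilament gene NEFL was called higher in MYC MUT (1.07, SE 0.08, limma adjusted p = 5.75e-06) and lower in SWP (-0.54, SE 0.08, limma adjusted p = 0.00219). NEFM was called lower in MYC MUT (-0.58, SE 0.16, limma adjusted p = 0.0127), and INA higher in SWP (1.44, SE 0.15, limma adjusted p = 0.000127). The single markers with a p were named after their values were seen. The part of any of these in the RUNX values was not tested.

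The genes around the members were compared within 500 kb of each gene, 162 in all, of which 78 were tested. Against MYC WT, 19 of the 78 were called in MYC MUT, 9 higher and 10 lower, 24.4% beside 21.4% of all tested genes. In SWP 4 were called, 5.13% beside 5.13%, and without SWP 3 the number was 2. In MYC MUT against SWP 19 were called, 10 higher and 9 lower, 24.4% beside 20.6%.

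Around RUNX3 12 genes were tested, and 11 had a lower mean log value in MYC MUT than in MYC WT, with a median log2 difference of -0.46 beside 0.00 for all tested genes. The values did not overlap, and were lower in MYC MUT, for 10 of the 12, where 26.4% of all tested genes were lower without overlap. The number called was 5, all lower, where 10.1% of all tested genes were called lower. These 5, given here after their values were seen, were CLIC4, SYF2, STPG1, RSRP1 and RHCE. CLIC4, the nearest tested gene at 55.2 kb, had 16174, 23724 and 21424 normalized counts in MYC WT, 11561, 12976 and 13426 in MYC MUT, and 16298, 20768 and 19266 in SWP. It fell in MYC MUT by 0.68 on the log2 scale (SE 0.13, limma adjusted p = 0.00231). STPG1, at 483 kb, fell by 0.65 (SE 0.07, limma adjusted p = 4.43e-05). RHCE, at 397 kb and with a mean of only 26.9, fell by 1.64 (SE 0.36, limma adjusted p = 0.00439). Among the others SYF2 fell by 0.61 (SE 0.12, limma adjusted p = 0.00203), and RSRP1, with -0.75 (SE 0.23, limma adjusted p = 0.0249), lost its call in 4 of 20 alternatives, among them without MYC MUT 3 (-0.53), without MYC WT 1 (-0.66) and without MYC WT 3 (-0.71). In MYC MUT against SWP all 12 differences were below 0 and 4 genes were called lower, beside 8.31% of all tested genes. In SWP limma, edgeR and DESeq2 called 0 of the 12, where limma called 5.13% of all tested genes. Of the 12, 2 had an unadjusted p under 0.05, and the median was -0.07. The falls of these neighbours were small beside that of RUNX3, and the antisense gene RUNX3-AS1 had no read in any library.

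Around RUNX1 18 genes were tested. LINC01426, a long noncoding RNA 2.92 kb from the 3′ end of RUNX1, chosen after its values were seen, had 18.5, 28.1 and 24.1 normalized counts in MYC WT and 6.87, 3.71 and 6.92 in SWP. It was thus lower in SWP, like RUNX1, by 1.86 on the log2 scale (SE 0.28, limma adjusted p = 0.00164), and it was called higher in MYC MUT, at 39.7, 48.6 and 44.8, a call lost in 5 of 19 alternatives, among them without MYC WT 1 or 3 and without MYC MUT 2 or 3. On the other side of RUNX1, ENSG00000273199 rose in MYC MUT by 1.58 (SE 0.24, limma adjusted p = 0.000488) and the pseudogene SRSF9P1, whose reads may be shared with its parent gene, rose in SWP by 0.53 (SE 0.11, limma adjusted p = 0.00988) and did not pass the fold threshold without SWP 3 (0.47). Inside RUNX1 lies the pseudogene EZH2P1, at 257 to 370 normalized counts and not called in any comparison. Of 6 tested genes around RUNX2, CLIC5 rose in both edited lines, by 0.96 in MYC MUT (SE 0.21, limma adjusted p = 0.00395) and 1.00 in SWP (SE 0.21, limma adjusted p = 0.0109). SUPT3H, which overlaps the start of RUNX2 on the other strand, had 1028 to 1405 normalized counts in MYC WT and 867 to 934 in MYC MUT, where RUNX2 was higher. Since the use of strand in counting is not given in the sources used here, reads of SUPT3H and RUNX2 in their shared stretch cannot be assigned with certainty.

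CBFB has the densest surroundings, with 42 tested genes, of which MYC MUT had 11 called, 6 higher and 5 lower, 26.2% beside 21.4% of all tested genes, and SWP had 1, beside 5.13%. ZDHHC1, a palmitoyltransferase at 293 kb, fell in MYC MUT by 1.63 on the log2 scale (SE 0.19, limma adjusted p = 8.62e-05), and FBXL9P, a unitary pseudogene of an F-box gene at 106 kb, rose by 0.89 (SE 0.17, limma adjusted p = 0.00196). CMTM1, at 449.8 kb, was the gene called in SWP, 0.58 higher (SE 0.15, limma adjusted p = 0.0280), a call lost in 7 of 20 alternatives, among them without SWP 1 or 3, MYC WT 2 or 3, or MYC MUT 2. The median log2 difference around CBFB was 0.15 in MYC MUT and -0.10 in SWP, beside 0.00 and -0.06 for all tested genes.

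**Figure D5:**
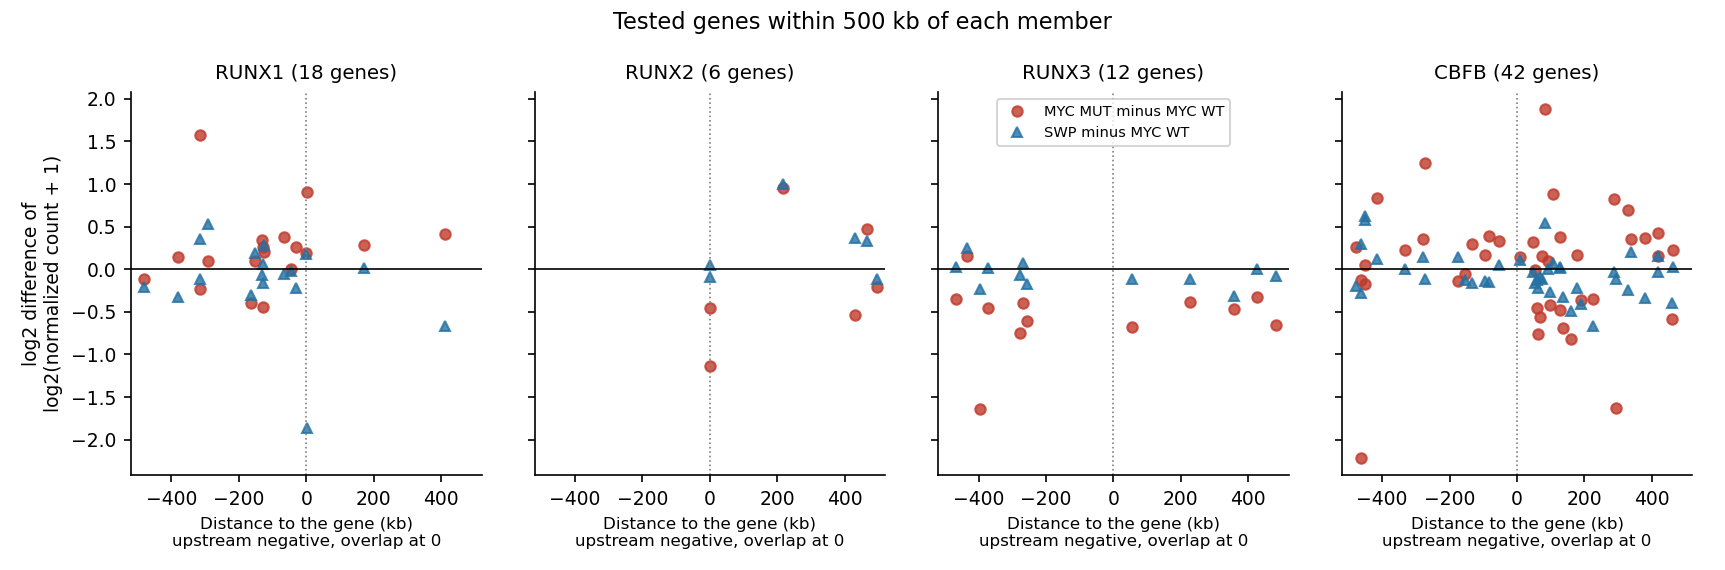
Log2 differences of log2(normalized count + 1) against MYC WT (vertical axis) of the tested genes within 500 kb of each member, by distance in kb (horizontal axis, upstream negative, overlapping genes at 0). Circles are MYC MUT and triangles SWP. Around RUNX3 11 of 12 circles lie below 0 and the triangles have a median of -0.07.

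The genes most like each member over the 9 libraries were ranked among 16864 tested genes with a mean of at least 50, by the root mean square difference of centred log2(normalized count + 1). For RUNX3 these were CDO1 (0.36), AGMAT (0.41), ZNF572 (0.57), EXO5 (0.62) and SLC12A8 (0.74). They share with it low values in MYC MUT alone: CDO1 had a mean of 129 normalized counts in MYC WT, 1.57 in MYC MUT and 97.6 in SWP, and AGMAT 222, 5.76 and 287. For RUNX1 they were LMAN1 (0.08), LINC00839 (0.09), SPATC1L (0.09), SNX25 (0.11) and EIF5B (0.11), with LMAN1 at means of 13007, 13369 and 7426 in MYC WT, MYC MUT and SWP. For RUNX2 they were ENSG00000234115 (0.10), ENSG00000228354 (0.10), METRNL (0.10), COX11P1 (0.11) and NFKBIE (0.11), and for CBFB they were PIAS2 (0.05), WDR82 (0.05), ATP6V0E1 (0.06), RNF4 (0.06) and AGFG1 (0.06). The libraries and their scaling are common to every gene ranked, so likeness here is a description of these 9 libraries.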

How the data were processed

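RNA-seq of 9 libraries was analysed, of the 213 samples of the series. The other assays were not analysed here. RNA was enriched for poly(A) and made into strand-specific libraries. The authors aligned reads with BWA (0.7.17-r2188 in the submitters' processing notes, build hg38), which does not join reads across introns, so that reads over exon junctions can be lost, and removed duplicates with Picard. The annotation was GENCODE. The counting tool and its use of strand are not given in the sources used here. The deposited values are a signal, gene counts that the authors scaled by DESeq2 size factors. Divided by the smallest value above 0 of the library, taken as 1 read, 100.0% of values came out as whole reads (tolerance 0.001).

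Differences were tested in limma 3.58.1 (R 4.3.3) with a mean-variance trend, on log2(normalized count + 1). One fit held the 9 libraries and the 20884 genes whose mean reached 10, and p-values were adjusted by Benjamini-Hochberg across these genes. A difference is on that log2 scale, which understates changes of low genes. It calls 4476 genes in MYC MUT against MYC WT, 1072 in SWP against MYC WT and 4309 in MYC MUT against SWP. On the recovered reads edgeR 4.0.16 calls 4554, 1110 and 4407 and DESeq2 1.42.0 calls 4412, 1176 and 4241. The labels do not say that libraries of a line came from separate cultures beyond the word for biological replicate, so p-values measure the spread between these libraries. No library repeated another of its line (chi-square per degree of freedom 8.32 to 55.6).

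The members and lists were chosen with earlier results of these data known. Network and neighbour genes are named if called against MYC WT with a mean of at least 50 and no overlap, up to 4 per list and comparison by size, and exceptions are said to be so. Symbols come from GENCODE v44, which matched 57754 of 58336 identifiers, and promoter windows from RefSeq (GRCh38.p14), where 5 windows of RUNX1, RUNX2 and RUNX3 were found. Deviations of same-numbered libraries correlated in SWP and MYC WT (r = 0.56, 0.40 and 0.10) and in MYC MUT and SWP (0.33, 0.24 and 0.23). In MYC MUT and MYC WT the values were 0.33, 0.15 and 0.05. SWP 3 correlated more with MYC WT 2 (0.26) than with MYC WT 3. The main fit ignores the replicate number, so its errors, p-values and calls are unpaired, and the replicate block was an alternative only. Alternatives were other pseudocounts, minima, scalings and thresholds, no trend, only the 2 groups compared, the replicate block, edgeR, DESeq2 and leaving out each library. Figures were drawn with matplotlib 3.10.9.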

Additional observations from a re-analysis of the deposited data

How the results depend on the processing

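Over the 20 alternative fits the log2 difference from MYC WT lay between -6.05 and -4.26 for RUNX3 in MYC MUT and between -0.85 and -0.75 for RUNX1 in SWP. These are refits of the libraries that chose the family and are no independent support. The fold threshold set the counts: with none, 8021, 2083 and 7944 genes passed in MYC MUT against MYC WT, SWP against MYC WT and MYC MUT against SWP, and with 1 on the log2 scale 1648, 505 and 1723. The network counts without a threshold were 40, 10 and 43, and 2 in SWP against MYC WT at a threshold of 1. The neighbour counts were 36, 8 and 39 without a threshold and 6, 1 and 7 at 1, and 8, 2 and 5 within 250 kb against 31, 7 and 32 within 1000 kb. Leaving out 1 library gave 3923 to 4950, 837 to 1252 and 3785 to 4807 genes, 3 to 9 network calls and 2 to 5 neighbour calls in SWP against MYC WT. With the longest transcript in place of all exons, the levels per kb in MYC WT, MYC MUT and SWP were 102, 104 and 58.5 for RUNX1, 19.0, 25.5 and 19.8 for RUNX2, and 2182, 2772 and 2489 for CBFB. RUNX3 was at 58.9 in MYC WT, and the CBFB ratio in MYC MUT was 21.3. With the replicate number as a block, 4970 genes were called in MYC MUT against MYC WT, 1464 in SWP against MYC WT and 4773 in MYC MUT against SWP, and the network counts were 19, 9 and 24 and the neighbour counts 22, 4 and 21. The labels give only a replicate number, and do not say that same-numbered libraries of different lines belong together. Among the named genes this block moved the calls of CBFA2T3 and FOS in SWP and no other. Of 1905 values of named genes under alternatives, 67 lost a call, 9 gained one and 0 changed direction with a call. The causes of these changes were not tested. RUNX3 in MYC MUT rests on 12 reads, so depth limits its value there, and 3 libraries per line limit every error given.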
